A study of Mus musculus with 13 samples.

Results

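The 10 genes of embryonic skeletal muscle were followed in microarrays of the developing mouse spine, where muscle is a neighbour of the captured tissues rather than part of them. They were chosen by name: every probe set annotated to exactly 1 gene symbol among Acta1, Actc1, Tnnt1, Tnnc1, Myh3, Myl1, Myod1, Myog, Myf5 and Ckm was taken. These are 10 of 18193 named genes on the array and 12 of 45037 probe sets, with 2 probe sets each for Myod1 and Ckm and 1 for each of the other genes. Intervertebral disc (IVD) and vertebrae were laser-captured from the lumbar spine of E13.5 embryos, and RNA of 13 samples was hybridised to 13 arrays. The mutant IVD group (Cre+;Tgfbr2lox/lox, 4 arrays) and the control IVD group (Cre-;Tgfbr2lox/wt, 3 arrays) gave the disc. The mutant vertebrae group (genotype label spelled Cre+;Tgrbr2lox.lox, 3 arrays) and the control vertebrae group (Cre-;Tgfbr2lox/wt, 3 arrays) gave the vertebrae. All groups therefore carried at least 1 loxP-flanked allele of Tgfbr2, the type II receptor of TGF-beta. Cre was driven by the Col2a promoter, which is active in the cartilage lineage. Both control tissues were taken from the same mice. The arrays were described as biological replicates.

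The skeletal muscle of the trunk arises from the myotome, beside the sclerotome that forms vertebrae and discs. Myf5, Myod1 and myogenin (Myog) are basic helix-loop-helix factors that bind E-boxes. Myf5 and Myod1 commit cells to the muscle lineage and Myog drives their differentiation into fibres. The fibres then fill with sarcomeres, in which thick filaments of myosin (Myh3, the embryonic heavy chain, and Myl1, a light chain of fast fibres) slide along thin filaments of actin (Acta1, the skeletal form, and Actc1, the cardiac form that embryonic skeletal muscle also makes). Tnnt1 and Tnnc1 encode the troponin T and troponin C of slow fibres, which hold the thin filament off or on according to calcium. Actc1 and Tnnc1 are also genes of the heart. Ckm, muscle creatine kinase, regenerates ATP and belongs to later stages of the fibre.

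The stretches upstream of 4 of the genes are shown because those genes carry the contrast described below: Myh3 and Actc1 varied most between arrays, Acta1 is the skeletal partner of Actc1, and Myog is the regulator with the widest range. Each is the 250 bases before the annotated transcript start, 5' to 3' on the strand of the gene, from RefSeq (GRCm38.p6). Capitals mark E-boxes (CANNTG) and the CArG box, the site of serum response factor.
Myh3 (chr11:67078050-67078299, plus strand): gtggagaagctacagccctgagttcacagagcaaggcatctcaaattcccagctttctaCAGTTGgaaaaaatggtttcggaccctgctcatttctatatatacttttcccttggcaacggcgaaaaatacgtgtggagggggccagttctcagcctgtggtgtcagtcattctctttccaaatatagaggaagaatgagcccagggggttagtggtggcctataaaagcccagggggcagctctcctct
Actc1 (chr2:114052876-114053125, minus strand): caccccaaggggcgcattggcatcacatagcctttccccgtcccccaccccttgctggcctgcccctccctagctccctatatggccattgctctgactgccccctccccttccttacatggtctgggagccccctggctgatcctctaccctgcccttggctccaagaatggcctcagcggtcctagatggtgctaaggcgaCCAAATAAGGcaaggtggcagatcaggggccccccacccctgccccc
Acta1 (chr8:123894776-123895025, minus strand): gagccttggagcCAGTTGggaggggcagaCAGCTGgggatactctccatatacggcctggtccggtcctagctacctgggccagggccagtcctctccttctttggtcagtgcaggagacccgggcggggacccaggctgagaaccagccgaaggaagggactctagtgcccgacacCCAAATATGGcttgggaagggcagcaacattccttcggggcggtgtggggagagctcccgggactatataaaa
Myog (chr1:134289754-134290003, plus strand): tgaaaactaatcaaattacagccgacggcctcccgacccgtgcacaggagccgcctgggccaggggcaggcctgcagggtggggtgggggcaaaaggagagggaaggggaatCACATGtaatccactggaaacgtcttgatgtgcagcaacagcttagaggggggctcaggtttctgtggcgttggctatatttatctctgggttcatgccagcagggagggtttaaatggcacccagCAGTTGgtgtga
Upstream sequences were matched for 9 of the 10 genes, and Myod1 was not among them. Both strands were searched. At least 1 E-box CANNTG was found in 7 of the 9, against 66.2% of all 32851 upstream stretches of the same length, so these letters did not set the genes apart. The narrower E-box CAGCTG, which is a subset of CANNTG, was found in 3 of the 9 (Myl1, Ckm and Acta1) and in 13% of all stretches. A CArG box was found in 2 of the 9, the actin genes Actc1 and Acta1, and in 1.47% of all stretches. A strict MEF2 pattern, YTAWWWWTAR (Y is C or T, W is A or T, R is A or G), was found in 0 of the 9. It was found in 2.92% of all stretches. Near matches were neither counted nor marked, such as ctatatttat in Myog, which differs from the pattern only at its last base. The 0 therefore holds for this pattern alone. None of the E-boxes overlapped a CArG box. These matches describe letters in a short window and say nothing of binding.

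Values were log2 signals from RMA, each expressed relative to the median of its own probe set over the 13 arrays, so that 0 is the middle array and 1 is 2 times its signal. They hold no absolute level, and a value of one gene cannot be set against that of another as an amount of RNA. In bulk tissue of this kind, fewer muscle cells and less muscle RNA per cell cannot be told apart. Cartilage markers (15 genes) averaged between -1.49 and 0.05 in the 7 IVD arrays and between 0.02 and 1.04 in the 6 vertebrae arrays, with overlap between the tissues. Fetal liver markers (11 genes), which belong to neither captured tissue, averaged 2.44 in mutant IVD 3, 3.37 in mutant IVD 4, 5.17 in control IVD 1 and 5.33 in control vertebrae 1, and between -0.35 and 0.25 in the other 9 arrays. Of 3 probe sets for Tgfbr2, 2 stayed between -0.11 and 0.50 in all arrays. The third ran between 0.00 and 1.31 in mutant IVD, -0.52 and 0.99 in control IVD, -2.10 and -0.17 in mutant vertebrae, and -0.42 and 0.00 in control vertebrae. Whether these probe sets cover the deleted exon was not analysed here.

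The muscle genes were high in 2 arrays, mutant IVD 4 and control IVD 1, and near their median in most others. In mutant IVD 4, 7 of the 12 probe sets lay above 1, against 2.22% of all probe sets on that array. In control IVD 1 the same count was 7 of 12, against 3.9%. Control vertebrae 1 followed with 3 of 12 (Actc1, Tnnc1 and Myh3), against 3.56%, and mutant vertebrae 1 had 2 of 12 (Actc1 and Myog), against 6.15%. Mutant IVD 2 (2.85% of all probe sets) and mutant IVD 3 (2.78%) had 1 each. The other 7 arrays had 0, against 2.6% in mutant IVD 1, 1.6% and 0.484% in control IVD 2 and 3, 2.39% and 1.59% in mutant vertebrae 2 and 3, and 1.96% and 1.44% in control vertebrae 2 and 3. The mean of the 10 genes was 2.20 in mutant IVD 4, 2.26 in control IVD 1, 0.70 in control vertebrae 1 and between -0.25 and 0.29 in the other 10 arrays. For 6 of the 12 probe sets those 2 IVD arrays held the highest and the second highest value, in either order, against 0.773% of all probe sets. That pair was picked because these genes were high there, so the count describes them and tests nothing. The pair of high arrays thus held a mutant and a control, both of IVD.

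**Figure D1:**
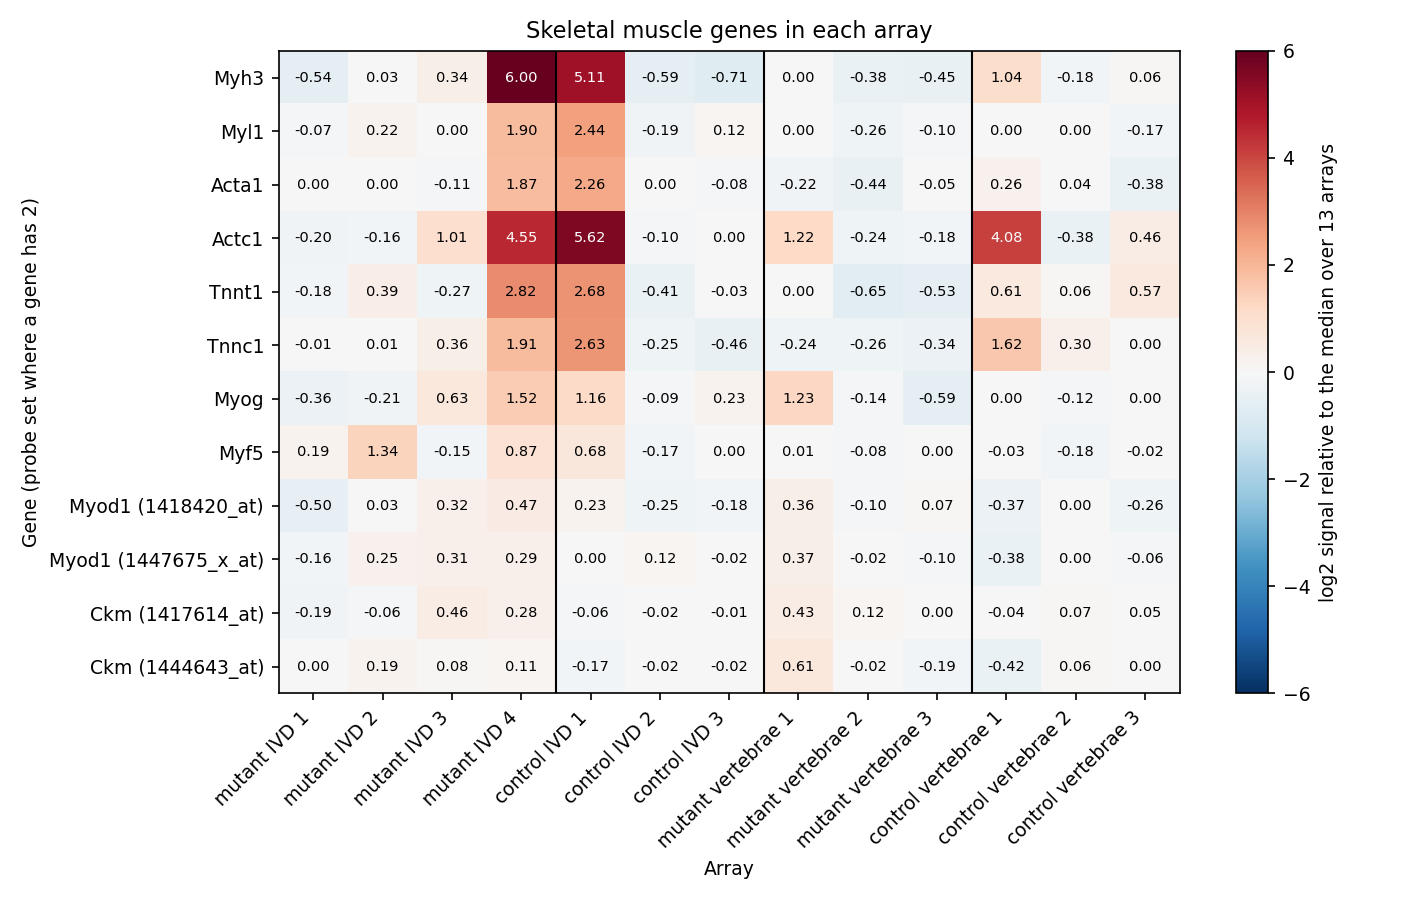
Log2 signal of each muscle probe set (rows) in each of the 13 arrays (columns), relative to the median of that probe set over all arrays; vertical lines separate mutant IVD, control IVD, mutant vertebrae and control vertebrae. The upper 6 rows, the sarcomere genes, reach 1.87 to 6.0 in mutant IVD 4 and 2.26 to 5.62 in control IVD 1, while Myod1 and Ckm stay between -0.50 and 0.61 throughout.

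Of the thick filament genes, Myh3 had the largest range of the 12 probe sets. It read -0.54, 0.03, 0.34 and 6.0 in the mutant IVD arrays, 5.11, -0.59 and -0.71 in control IVD, 0.00, -0.38 and -0.45 in mutant vertebrae, and 1.04, -0.18 and 0.06 in control vertebrae. A single array stood high in each IVD group, and the groups overlapped. The spread of Myh3 within groups, a residual SD of 2.38, was above that of 99.9% of all probe sets, whose median was 0.34. Group means of Myh3 were 1.46 ± 3.05 in mutant IVD (SD, n = 4), 1.27 ± 3.32 in control IVD, -0.28 ± 0.24 in mutant vertebrae and 0.30 ± 0.64 in control vertebrae (SD, n = 3 each). From the highest mean, the order was mutant IVD, control IVD, control vertebrae and mutant vertebrae, and each step between neighbours was smaller than the larger SD of the pair. Myl1 read -0.07, 0.22, 0.00 and 1.90 in mutant IVD and 2.44, -0.19 and 0.12 in control IVD. In all 6 vertebrae arrays Myl1 lay between -0.26 and 0.00, so it had the same pair of high arrays and a value of 0.00 in control vertebrae 1.

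The actin genes, part of the thin filament, had the same pair of high arrays. Acta1 read 0.00, 0.00, -0.11 and 1.87 in mutant IVD, 2.26, 0.00 and -0.08 in control IVD, -0.22, -0.44 and -0.05 in mutant vertebrae, and 0.26, 0.04 and -0.38 in control vertebrae. Outside mutant IVD 4 and control IVD 1 it never exceeded 0.26. Actc1 read -0.20, -0.16, 1.01 and 4.55 in mutant IVD, 5.62, -0.10 and 0.00 in control IVD, 1.22, -0.24 and -0.18 in mutant vertebrae, and 4.08, -0.38 and 0.46 in control vertebrae. This actin was therefore also high in control vertebrae 1, where Acta1 was at 0.26, and above 1 in mutant IVD 3 and mutant vertebrae 1. Its residual SD was 2.34 (99.9th percentile of all probe sets).

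The slow troponins lay between these cases. Tnnt1 read -0.18, 0.39, -0.27 and 2.82 in mutant IVD, 2.68, -0.41 and -0.03 in control IVD, 0.00, -0.65 and -0.53 in mutant vertebrae, and 0.61, 0.06 and 0.57 in control vertebrae. Tnnc1 read -0.01, 0.01, 0.36 and 1.91 in mutant IVD, 2.63, -0.25 and -0.46 in control IVD, -0.24, -0.26 and -0.34 in mutant vertebrae, and 1.62, 0.30 and 0.00 in control vertebrae. Both had the same pair of high IVD arrays, and Tnnc1 shared with Actc1 a high value in control vertebrae 1. All 6 sarcomere genes had residual SDs above the 95th percentile of all probe sets, and 2 of them, Myh3 and Actc1, above the 99th. The mean of mutant vertebrae was the lowest of the 4 groups for 6 of the 6, and both IVD means exceeded both vertebrae means for 4 of the 6 (Acta1, Tnnt1, Myh3 and Myl1). The exceptions were Actc1 and Tnnc1, for which control vertebrae averaged above mutant IVD. These orders were not counted over all probe sets, the 6 genes varied together, and single arrays could turn the order. Without control IVD 1, control IVD differed from control vertebrae by -0.95 for Myh3, -0.63 for Tnnt1, -0.01 for Acta1 and 0.02 for Myl1.

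**Figure D2:**
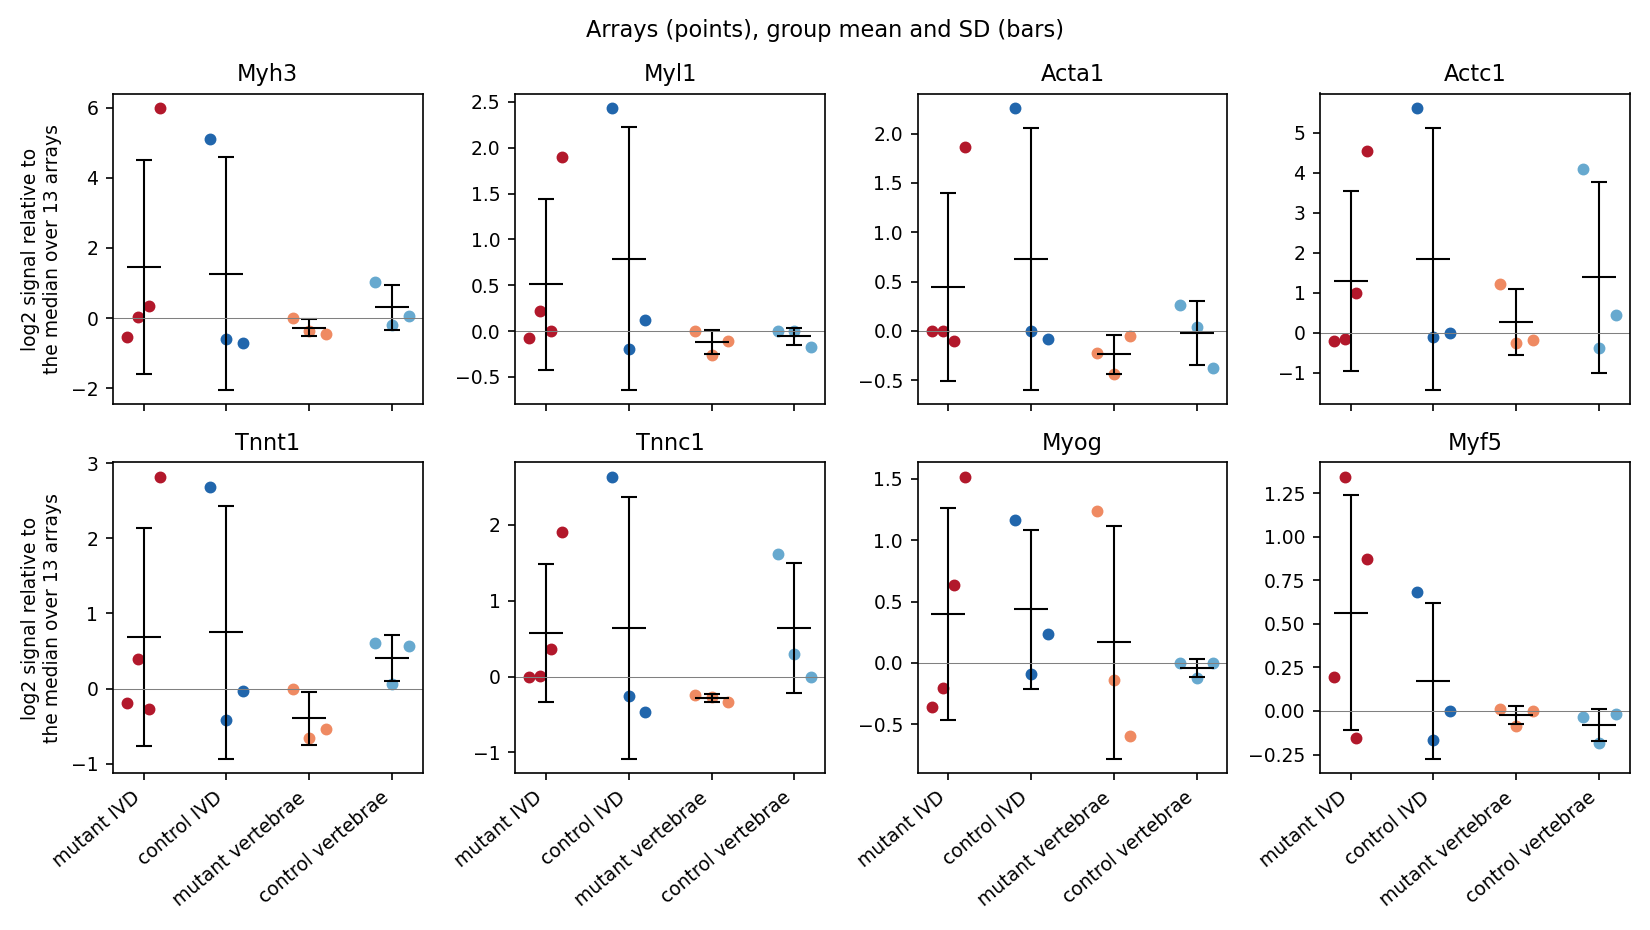
Log2 signal relative to the median over 13 arrays (vertical axes, scaled separately for each gene) of 8 muscle genes in the 4 groups. Points are single arrays, and black bars give the group mean and SD (n = 4 for mutant IVD, n = 3 for the others); a single point in each IVD group stands above the rest of that group for Myh3, Myl1, Acta1, Actc1, Tnnt1 and Tnnc1.

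The regulators moved less. Myog read -0.36, -0.21, 0.63 and 1.52 in mutant IVD, 1.16, -0.09 and 0.23 in control IVD, 1.23, -0.14 and -0.59 in mutant vertebrae, and 0.00, -0.12 and 0.00 in control vertebrae. Its 3 highest values were in mutant IVD 4, mutant vertebrae 1 and control IVD 1. Myf5 read 0.19, 1.34, -0.15 and 0.87 in mutant IVD and 0.68, -0.17 and 0.00 in control IVD. In the vertebrae Myf5 stayed between -0.08 and 0.01 in mutant arrays and between -0.18 and -0.02 in control arrays. Unlike the sarcomere genes, Myf5 was highest in mutant IVD 2, an array in which Myh3 was at 0.03 and Acta1 at 0.00. Myod1 ran between -0.50 and 0.47 for 1 probe set and between -0.38 and 0.37 for the other, an x_at design whose probes may also match other sequences. In mutant IVD 4 these read 0.47 and 0.29, and in control IVD 1 they read 0.23 and 0.00.

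Ckm did not follow the sarcomere genes. Its first probe set lay between -0.19 and 0.46 and its second between -0.42 and 0.61. In mutant IVD 4 they read 0.28 and 0.11, and in control IVD 1 they read -0.06 and -0.17. The highest value of Ckm, 0.61, was in mutant vertebrae 1. Both probe sets of Ckm and both of Myod1 had residual SDs below the median of all probe sets. Since the values hold no absolute level, they cannot show whether these probe sets detected their transcripts or read background.

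Across the 13 arrays the 6 sarcomere genes varied together. Their 15 pairs had Pearson correlations between 0.83 and 0.98, with a median of 0.90. Without mutant IVD 4 and control IVD 1, the arrays farthest from the median of the genes' mean, the range over the remaining 11 arrays was 0.13 to 0.89 and the median 0.48, so the joint variation rested in large part on those 2 arrays. Against the mean of the 10 genes, in which each gene is itself included, Myh3 had r = 0.99, Tnnt1 0.97, Myog 0.78, Myf5 0.56 and the first probe set of Ckm 0.15. Without those 2 arrays these were 0.93, 0.70, 0.47, 0.14 and 0.29. These correlations describe 13 arrays of 4 groups and carry no test.

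Mutant IVD 4 and control IVD 1 were not alike in proportion. Myh3 was 0.89 higher on the log2 scale in mutant IVD 4 than in control IVD 1, and Tnnt1 was 0.14 higher. The remaining sarcomere genes were lower in mutant IVD 4, with differences of -1.08 for Actc1, -0.73 for Tnnc1, -0.54 for Myl1 and -0.39 for Acta1. All probe sets of the regulators and of Ckm were higher in mutant IVD 4, by 0.19 to 0.36. With 1 array on each side these differences have no replicate check.

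Other skeletal muscle genes were 84 genes with 159 probe sets, in lists of regulators, filament and Z-disc proteins, membrane and fusion proteins, calcium handling and energy metabolism. Their mean was 0.60 in mutant IVD 4 (17 genes above 1), 0.32 in control IVD 1 (8 genes) and 0.33 in mutant vertebrae 1 (4 genes). It lay between -0.09 and 0.07 in the other 10. Control IVD 1 and mutant vertebrae 1 were thus close in mean but not in median. The median was 0.43 in mutant IVD 4, 0.11 in control IVD 1 and 0.38 in mutant vertebrae 1. Of the 159 probe sets, 24, 15 and 9 lay above 1 in these arrays, in the same order. The shares of all probe sets were 2.22%, 3.9% and 6.15%. The 31 filament and Z-disc genes averaged 0.95 in mutant IVD 4 and 0.71 in control IVD 1. The 11 progenitor and regulatory genes averaged 0.22 and 0.05 in those arrays. In mutant vertebrae 1 the means of all these lists lay between 0.22 and 0.37. Of the 84 genes, 34 had their highest value in mutant IVD 4, 24 in mutant vertebrae 1 and 7 in control IVD 1. This was not counted over all genes, so these counts have no background. Mutant vertebrae 1 had the largest share of all probe sets above 1 of any array. With the probe sets of a gene averaged, Tnnc2, the troponin C of fast fibres, had the highest value at 3.42 in mutant IVD 4, with 2.69 in control IVD 1. Of the myosin genes, 3 picked after their values were seen were likewise high. Myh8, the perinatal heavy chain, read 3.31 in mutant IVD 4 and 1.83 in control IVD 1. Myh7, the slow and cardiac heavy chain, read 3.29 and 1.61 in the same arrays and 1.11 in control vertebrae 1. Mylpf, a fast regulatory light chain, read 2.43 and 1.40. The other myosins of these lists were not above 1 in either array. Myh1 and Myh2, heavy chains of adult fast fibres, read 0.06 and -0.22 in mutant IVD 4 and 0.08 and -0.09 in control IVD 1. The light chains Myl4 and Myl6b read 0.81 and 0.00 in mutant IVD 4 and 0.33 and -0.15 in control IVD 1.

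**Figure D3:**
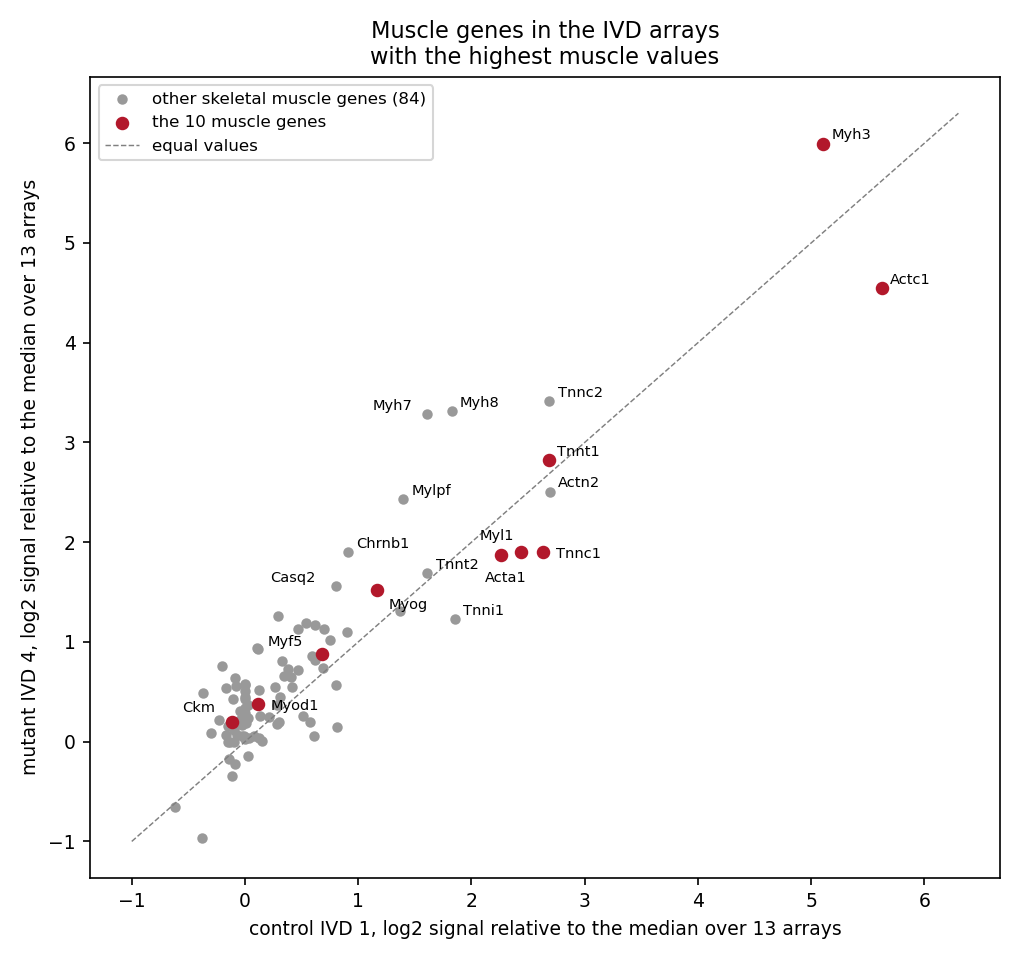
Each point is a muscle gene (mean of its probe sets), with its log2 signal relative to the median over 13 arrays in mutant IVD 4 (vertical axis) and in control IVD 1 (horizontal axis); red points are the 10 muscle genes, grey points 84 other skeletal muscle genes, named where a value exceeds 1.5, and the dashed line marks equal values. Myh3 and Actc1 lie farthest out, Ckm and Myod1 near 0, and Myh7 and Myh8 above the line.

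Among all probe sets with 1 gene name, those most like the mean of the 10 genes over the 13 arrays were led by other muscle genes. Ttn, the giant sarcomere protein titin, had r = 0.99 (Spearman's rho 0.90, and r = 0.94 without mutant IVD 4 and control IVD 1), and Actn2, the alpha-actinin of the Z-disc, had r = 0.98. Mymx, a small protein needed for the fusion of myoblasts, had r = 0.96. Next came Myh11, the myosin heavy chain of smooth muscle (0.96), 9530057J20Rik (0.95), Tnnt2 (0.94), Tnnc2 (0.93), Adamts18, a secreted protease (0.92), Myh7 (0.92) and Cd5l, a protein of macrophages (0.91). This probe set of Ttn read -0.08, 0.40, 0.51 and 4.39 in mutant IVD, 4.03, 0.00 and -0.02 in control IVD, 1.14, -0.02 and -0.25 in mutant vertebrae, and 1.82, -0.14 and 0.00 in control vertebrae. Taken singly, Acta1 and Myl1 were most like each other (r = 0.98), Tnnt1 was most like Myh3 (0.96) and Myh3 most like Actn2 (0.98). Actc1 was most like Cd5l (0.99), and Tnnc1 most like Marco, a macrophage scavenger receptor (0.96), rather than any muscle gene. Cd5l read 2.57 in mutant IVD 4, 2.93 in control IVD 1 and 2.53 in control vertebrae 1, and at most 0.62 elsewhere. The probe sets of Myod1, Myog, Myf5 and Ckm were each most like a gene outside the muscle lists, with r between 0.91 and 0.95. These were Cdk5r1 and Cyp2d13 for Myod1, Tex13a for Myog, Niban1 for Myf5, and Lrrc61 and Epha2 for Ckm.

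Markers of other tissues moved in the same arrays, and their part in the muscle values was not tested. Fetal liver markers were above 1 for 9 of 11 genes in mutant IVD 4 and 11 of 11 in both control IVD 1 and control vertebrae 1. They were also above 1 for 8 of 11 in mutant IVD 3, where the 10 muscle genes averaged 0.24. Within control pair 1, liver markers averaged 5.17 in IVD and 5.33 in vertebrae. In the same arrays Myh3 read 5.11 and 1.04, Acta1 2.26 and 0.26, Myl1 2.44 and 0.00, and Tnnt1 2.68 and 0.61. Actc1 (5.62 and 4.08) and Tnnc1 (2.63 and 1.62) were above 1 in both. Smooth muscle markers (10 genes) averaged 1.08 in mutant IVD 4 (5 above 1) and 0.66 in control IVD 1 (2 above 1), and lay between -0.33 and 0.48 elsewhere. Cardiac markers (12 genes) averaged 0.30 in mutant IVD 4 and -0.02 in control IVD 1, with 0 genes above 1 in either. In control vertebrae 1, the array where Actc1 and Tnnc1 were high and Acta1 was not, 2 of the 12 cardiac markers were above 1, the heart myosins Myh6 (1.45) and Myl2 (1.57). In all other arrays neither exceeded 0.41. The cardiac list as a whole did not set control vertebrae 1 apart, with a mean of 0.35 and a median of -0.02 there and a mean of 0.35 in mutant vertebrae 1, where 0 of its genes were above 1. Cartilage markers were lowest in mutant IVD 4 (-1.49) and control IVD 1 (-1.13).

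**Figure D4:**
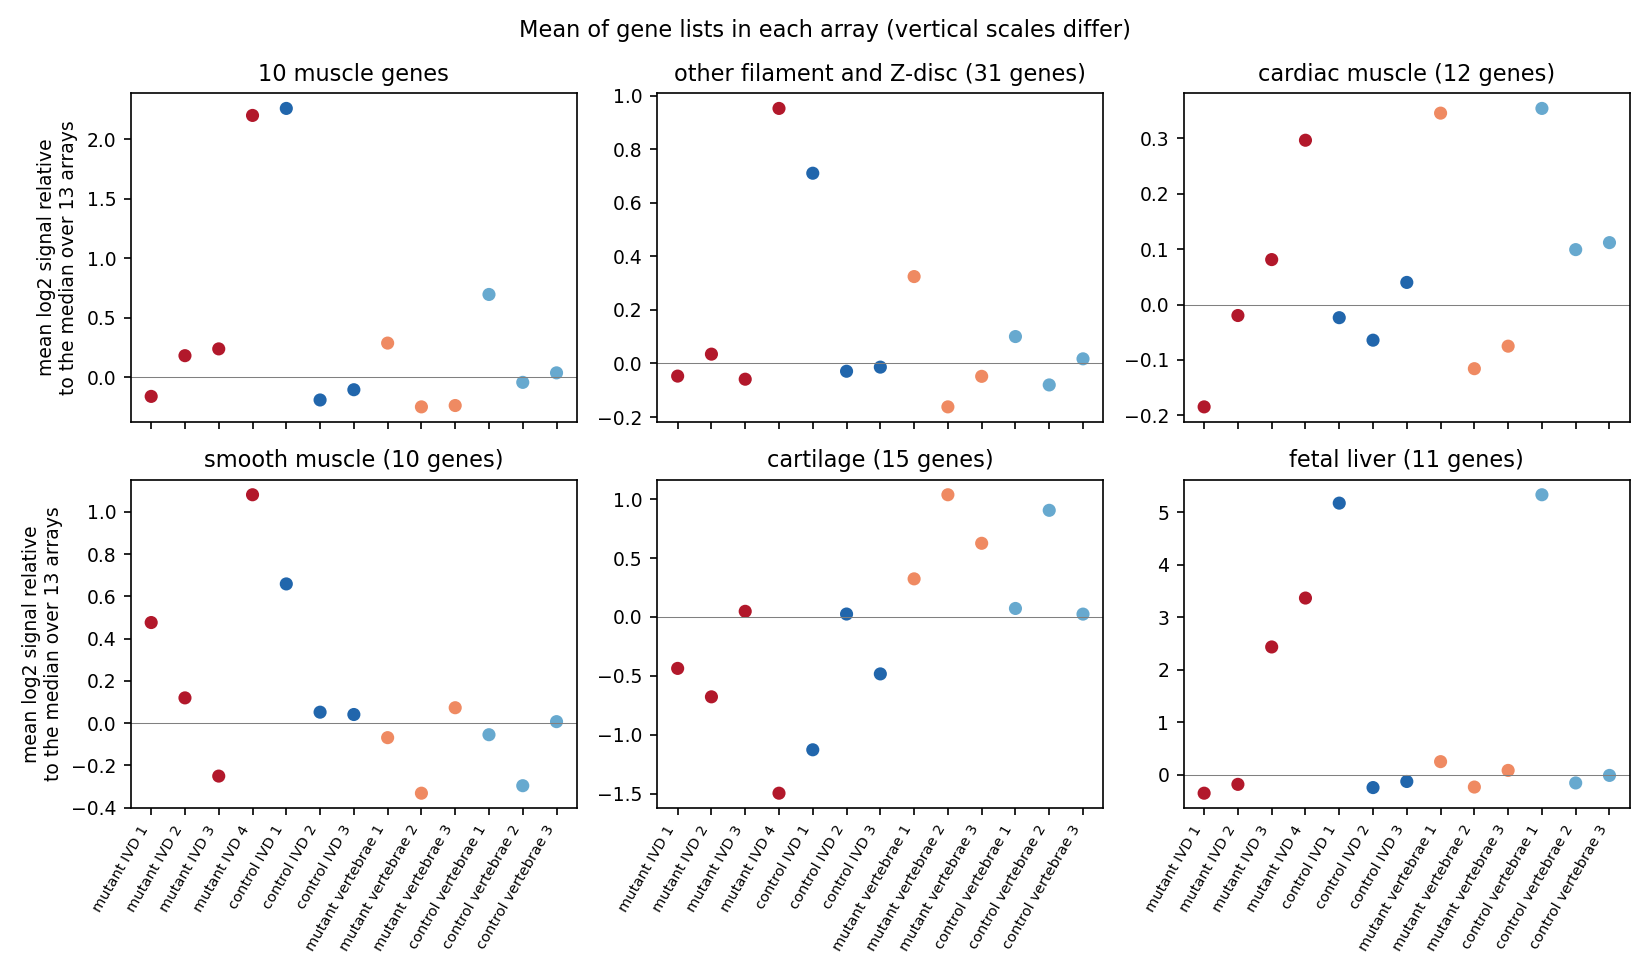
Mean log2 signal, relative to the median over 13 arrays, of the 10 muscle genes and 5 marker lists (panels, each with its own vertical scale) in each of the 13 arrays (horizontal axis; red mutant IVD, blue control IVD, orange mutant vertebrae, light blue control vertebrae). Muscle, filament and smooth muscle lists peak in mutant IVD 4 and control IVD 1, the cartilage list is lowest there, and the liver list is high in mutant IVD 3 and control vertebrae 1 as well.

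Loss of Tgfbr2 was compared with its control first in the IVD. Myh3 was 0.19 ± 1.58 higher in mutant IVD than in control IVD on the log2 scale (difference ± SE, limma, 95% confidence interval -3.25 to 3.63). Actc1 differed by -0.55 ± 1.55, Acta1 by -0.29 ± 0.58 and Myog by -0.04 ± 0.50. Myf5 had the lowest unadjusted p of the 12 probe sets, with a difference of 0.39 ± 0.32 (adjusted p = 1, limma). None of the 12 was called at an adjusted p under 0.05, with 0 at an unadjusted p under 0.05, and 0 of all 45037 probe sets were called (0%), with 1411 (3.13%) at an unadjusted p under 0.05. The difference was above 0 for 6 of the 12, against 59.6% of all probe sets, with a median of 0.05 among the 12 and 0.05 over all. The count of the 12 was 8 after quantile normalisation (50.1% of all) and 12 with array weights (58.3%). It was 5 without mutant IVD 4 (58.5%), with a median of -0.47, and 12 without control IVD 1 (58.1%), with a median of 0.51. The groups did not overlap for 1 of the 12, the second Ckm probe set (0.00 to 0.19 in mutant IVD and -0.17 to -0.02 in control IVD), against 3.68% of all probe sets in that direction. For Myh3 and Actc1 the direction turned with single arrays. Without mutant IVD 4, Myh3 differed by -1.32 and Actc1 by -1.63, and without control IVD 1 by 2.11 and 1.35.

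In the vertebrae, 0 of the 12 probe sets were called between mutant and control (0 of all, or 0%, with 1177, or 2.61%, at an unadjusted p under 0.05 and 0 of the 12 among them). The difference was above 0 for 6 of the 12, against 58.8% of all. Tnnc1 and Tnnt1 were the members whose groups did not overlap, 2 of 12 against 1.93% of all probe sets in that direction. Of the 159 other skeletal muscle probe sets, which include further troponins, 0 were apart in that direction and 4 in the other. For the other direction no share of all probe sets is given here, so the 4 have no background. Tnnc1 lay between -0.34 and -0.24 in mutant vertebrae and between 0.00 and 1.62 in control vertebrae, a difference of -0.92 ± 0.75 (adjusted p = 0.998, limma). Tnnt1 lay between -0.65 and 0.00 in mutant vertebrae and between 0.06 and 0.61 in control vertebrae, a difference of -0.81 ± 0.84 (adjusted p = 0.998). Actc1 differed by -1.12 ± 1.66, the 1 of 12 that was at least 2-fold lower (1.29% of all probe sets), and by 0.23 without control vertebrae 1. Without the same array the difference of Tnnc1 was -0.43 and that of Tnnt1 -0.71.

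Between tissues of the control mice, 11 of the 12 probe sets averaged above control vertebrae in the control IVD, against 46.3% of all probe sets, and the median difference was 0.29, against -0.02 over all. The largest differences were 0.96 ± 1.69 for Myh3, 0.85 ± 0.63 for Myl1 and 0.75 ± 0.62 for Acta1. None was called (0 of 12, and 0% of all, with 0 of 12 and 2.45% at an unadjusted p under 0.05), and Myl1 had the lowest unadjusted p (adjusted p = 1, limma). Without control IVD 1, 4 of the 12 averaged higher in control IVD, against 47.6% of all probe sets, and the median was -0.01. The same mice gave both tissues, so the difference was also read within each pair of same-numbered control arrays. That equal numbers mark the same mouse was assumed. Myh3 was 4.07 higher in IVD than in vertebrae in pair 1, and differed by -0.41 and -0.77 in pairs 2 and 3. For Myl1 the 3 differences were 2.44, -0.19 and 0.29, for Acta1 2.0, -0.04 and 0.30, and for Tnnt1 2.07, -0.47 and -0.60. The excess in IVD of these 4 genes lay mainly in pair 1. A fit with the pair as a random block called 42 of all probe sets and 0 of the 12, with a lowest adjusted p of 0.539 among them.

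Between the tissues of the mutants, 9 of the 12 averaged higher in mutant IVD than in mutant vertebrae, against 46.7% of all probe sets, with a median difference of 0.61 against -0.02 over all. Here 3 of the 12 were at least 2-fold higher, against 2.66% of all. These were Myh3 (1.73 ± 1.58), Tnnt1 (1.08 ± 0.79) and Actc1 (1.03 ± 1.55). Without mutant IVD 4 the differences were 0.22 for Myh3 and 0.37 for Tnnt1, 0 of the 12 were at least 2-fold higher, and the median was 0.11. Myf5 had the lowest unadjusted p among the 12, with a difference of 0.59 ± 0.32 (adjusted p = 0.688, limma). Without mutant IVD 2, its highest array, Myf5 differed by 0.33. None of the 12 was called, against 7 (0.0155%) of all probe sets, and 0 of the 12 against 8.07% had an unadjusted p under 0.05. For 1 of the 12, Tnnc1, the groups did not overlap, against 3.41% of all probe sets in that direction. It lay between -0.01 and 1.91 in mutant IVD and between -0.34 and -0.24 in mutant vertebrae, and differed by 0.40 without mutant IVD 4.

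**Figure D5:**
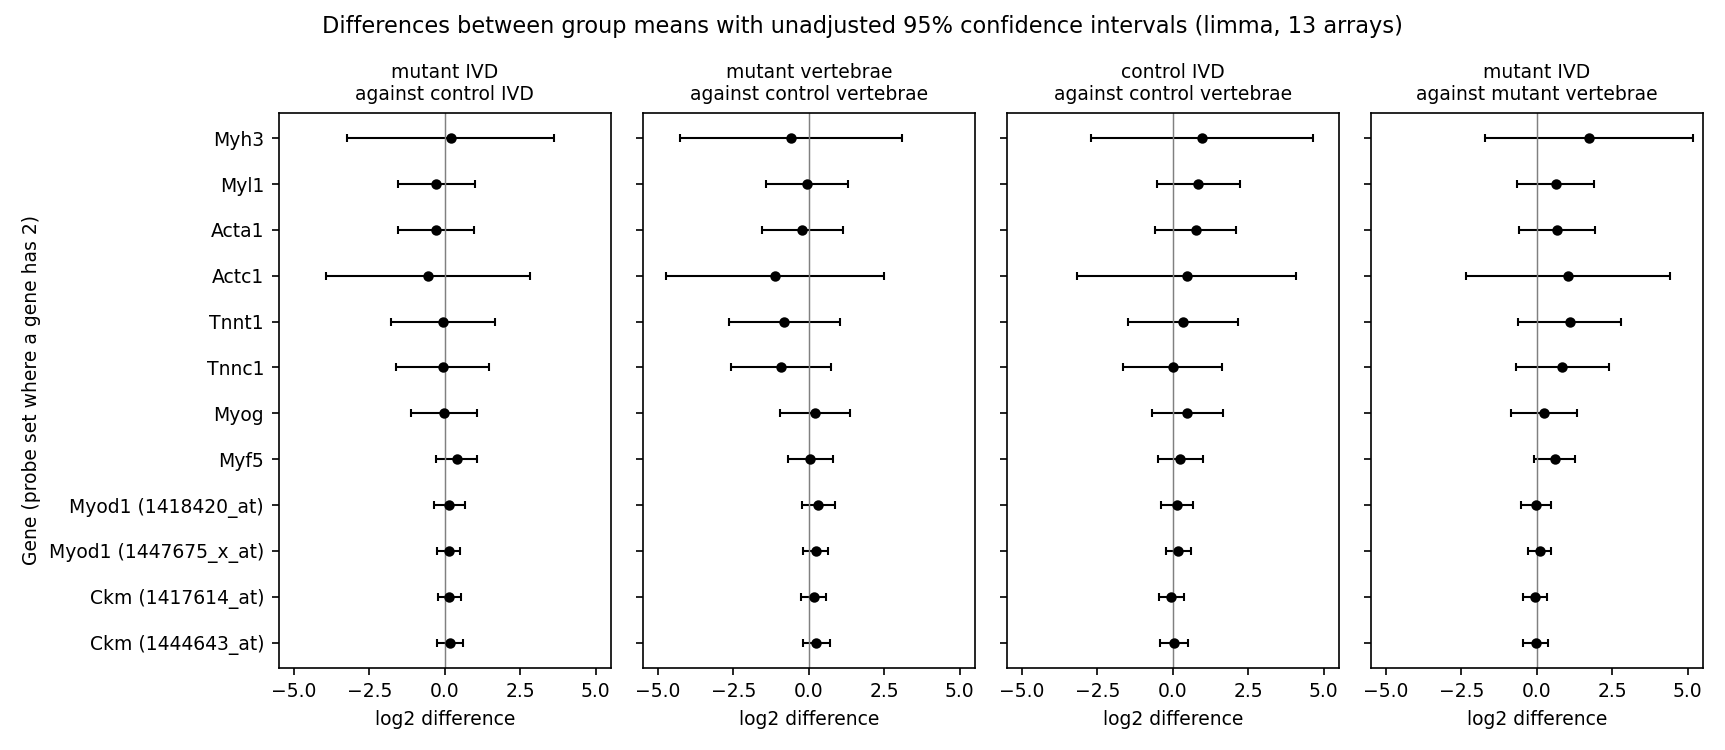
Difference of group means on the log2 scale (horizontal axis) with its unadjusted 95% confidence interval (limma fit over 13 arrays) for each of the 12 muscle probe sets (vertical axis) in 4 comparisons (panels), positive where the first-named group is higher. Every interval includes 0, and those of Myh3 and Actc1 are the widest and those of Myod1 and Ckm the narrowest.

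The effect of genotype was also compared between IVD and vertebrae. In the test of tissue by genotype 0 of the 12 were called (0% of all), and the lowest unadjusted p was that of Tnnc1 (0.85 ± 1.03, adjusted p = 1, limma). At an unadjusted p under 0.05 there were 0 of the 12, against 1.37% of all probe sets. The difference between the genotype effects was above 0 for 5 of the 12, against 49.5% of all, and for 12 of the 12 with array weights, against 53.3%. The 5 comparisons share arrays and are not independent of each other.

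Of the other 159 skeletal muscle probe sets 0 were called in any comparison. At an unadjusted p under 0.05, 4 were higher and 0 lower in the mutant than in the control disc (2.52%, against 3.13% of all probe sets), and 0 higher and 1 lower in mutant vertebrae than in control vertebrae (0.629%, against 2.61%). Ncam1, an adhesion molecule of muscle and also of nerve and mesenchyme, gave the 3 lowest p in the IVD, led by a difference of 1.34 ± 0.28 (adjusted p = 0.997, limma). Between IVD and vertebrae, 4 were higher and 5 lower in the controls (5.66%, against 2.45%), and 7 higher and 8 lower in the mutants (9.43%, against 8.07%). The genes that follow had the lowest p of these lists and are given as values. Mef2c, a MADS factor of muscle that also acts in chondrocytes, read lower in mutant IVD than in mutant vertebrae (-1.29 ± 0.29, adjusted p = 0.235). Tpm1, a tropomyosin that many cell types make, read higher in mutant IVD than in mutant vertebrae (1.25 ± 0.32, adjusted p = 0.278), as did Meox1, a homeobox gene of the somite (0.61 ± 0.17, adjusted p = 0.314).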

How the data were processed

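RNA (50 ng per sample) from laser-captured tissue was amplified in 2 cycles from oligo-dT primers by the authors and hybridised to Affymetrix mouse expression arrays. The deposited log2 values had been background-subtracted and normalised with RMA in GeneSpring, versions not given in the sources used here. Each probe set's median over the 13 arrays was 0 in the table. No scanner values were used here. After 64 control probe sets were left out, 45037 were tested, of which 34945 had 1 gene name, 932 several and 9160 none. The annotation can be old. Differences were tested with limma 3.58.1 in R 4.3.3, in 1 model of the 4 groups, with Benjamini-Hochberg adjustment over all probe sets. A call was an adjusted p under 0.05. The limma fit was tested on simulated data for the comparison of mutant IVD with control IVD, and the other steps were not. The 10 genes, the marker lists and the tests were chosen with earlier results of these data known. All probe sets of the 10 genes were named, with the 3 lowest p of other muscle lists per direction and the genes most like them, of which a selection is given. Lists of fibrous disc, tendon, notochord, neuronal, Schwann cell, endothelial and erythroid markers were also averaged per array. In mutant IVD 4, control IVD 1 and control vertebrae 1 the erythroid mean was 1.43, 2.70 and 2.83. In mutant IVD 4 and control IVD 1 the fibrous disc mean was 0.38 and 0.83, tendon 0.39 and 0.24, notochord -0.11 and 0.30, neuronal 0.57 and 0.50, Schwann cell 0.10 and -0.08, and endothelial 0.37 and 0.26. Mutant IVD 3 differed from the other IVD arrays, with a fibrous disc mean of -1.23 and a neuronal mean of 2.65. The fibrous disc mean lay between 0.38 and 1.60 in the other IVD arrays and between -1.41 and 0.04 in the vertebrae. What this array adds to the mutant IVD means was not tested. Same-numbered control arrays of IVD and vertebrae deviated together from their group means (r = 0.80, 0.57 and 0.57 for pairs 1, 2 and 3). With both tissues taken from the same mice, this was used to pair them. Arrays of unlike number were not compared. Both arrays of pair 1 held liver transcripts (means 5.17 in IVD and 5.33 in vertebrae), and deviations within so small a group are tied to each other. The r values therefore cannot show that equal numbers mark the same mouse. Precision is set by how few arrays there are. The p-values measure only the spread between these samples.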

Additional observations from a re-analysis of the deposited data

Results flagged for a closer look

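Within the 4 mutant IVD arrays, the highest or lowest value of each of the 12 probe sets was compared with the rest by its gap to the nearest value over the whole range. The gap passed the limit for 4 values (0.829) in 4 of the 12. Chance passes about 1 in 20 such groups if values are normally distributed, and the genes are not independent of each other. The rule was not run over all probe sets, so 4 of the 12 has no background. Mutant IVD 4 was already known as an array where these genes were high. For Acta1 the gap was 0.946 of the range, with 1.87 in mutant IVD 4. For Myh3 it was 0.865, with 6.0 in mutant IVD 4, and for Myl1 it was 0.851, with 1.90 in the same array. For the x_at probe set of Myod1 it was 0.884, with -0.16 in mutant IVD 1 and 0.25 to 0.31 in the other 3. Groups of 3 arrays were not examined this way, so control IVD 1 was not assessed.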

How the results depend on the processing

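The count of muscle probe sets called stayed at 0 under each alternative in the comparisons it was run for: only the compared groups, the methods' unequal-variance test, quantile normalisation, a variance trend, array weights, means over the probe sets of a gene, arrays without liver transcripts, replicate blocks and leaving out each array. The test of tissue by genotype was not run with the unequal-variance test or as a fit of only its compared groups, which are all 4. Over 12 probe sets, the number above 0 between mutant IVD and mutant vertebrae was 9 (46.7% of all). It was 10 after quantile normalisation (47.8%) and 12 with array weights (53.5%). At an unadjusted p under 0.05 at most 1 of the 12 passed in any comparison and alternative. Over all probe sets or genes, the number passing ran from 255 (tissue by genotype, means over the probe sets of a gene) to 5223 (mutant IVD against mutant vertebrae, array weights). Directions of sarcomere genes and of the regulator Myog did change. Between mutant and control IVD, leaving out single arrays gave differences from -1.32 to 2.11 for Myh3, -1.63 to 1.35 for Actc1, -0.76 to 0.48 for Acta1 and -0.41 to 0.32 for Myog. Array weights gave 0.31 for Actc1, 0.030 for Acta1 and 0.22 for Myog, and leaving out the 4 arrays with liver transcripts gave 0.040 for Acta1. Between mutant and control vertebrae, Actc1 ran from -2.01 to 0.23 over single arrays left out and was 0.23 without the liver-positive arrays. Between control IVD and control vertebrae, Myh3 ran from -0.95 to 1.95 and Acta1 from -0.015 to 1.16, and Myh3 was -0.59 without the liver-positive arrays. The cause was not tested.

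With the array number as a fixed replicate block over all arrays, mutant IVD 4 has no partner and drops out of the estimate, and Myh3 differed by -1.32 between mutant and control IVD. The random replicate block in the control arrays (correlation 0.538) moved the calls over all probe sets to 42, and a fixed block to 32, against 0 without a block, with 0 muscle probe sets among them. Same-numbered mutant arrays did not deviate together (r = -0.40, 0.24 and -0.15), so they were not taken as pairs. Over all probe sets, 7 calls between mutant IVD and mutant vertebrae became 55 with array weights, 29 without the liver-positive arrays, 177 without mutant IVD 3, 1 with the variance trend, and 0 with the unequal-variance test or in the compared groups alone. The values in the table were already corrected and centred, and no scan dates were used, so another background correction, a filter on dim probe sets and a slide block were not run.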
